A study of Homo sapiens with 6 samples.

Results

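The genes described here encode 10 secreted inflammatory cytokines and chemokines, namely IL6, IL11, LIF, IL1A, IL1B, CXCL8, CXCL1, CXCL2, CXCL3 and CSF2. They were taken by gene symbol from a table of 58302 genes, and all 10 passed the filter on low counts that left 15572 genes for testing. The cells were MDA-MB-231-DR, a doxorubicin-resistant derivative of MDA-MB-231, which is a triple-negative human breast cancer line with a mesenchymal character. There were 3 control libraries and 3 libraries of cells treated with cyperotundone (CYT), a compound of the sedge Cyperus rotundus. According to the methods, the resistant line is kept in a low concentration of doxorubicin, so this drug is shared by both groups as far as the sources say. The CYT dose and the treatment time of these libraries are not given in the sources used here, and although the methods speak in general of independent experiments, they do not say whether these libraries came from separate cultures, so p-values measure the spread between these libraries, which may be technical.

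These proteins carry signals between cells. IL-6, IL-11 and LIF belong to the IL-6 family, whose receptors share the gp130 chain and act through JAK kinases and STAT3. IL-1α and IL-1β act through the IL-1 receptor and NF-κB, and CXCL8, CXCL1, CXCL2 and CXCL3 attract neutrophils through CXCR1 and CXCR2. GM-CSF, the product of CSF2, acts on myeloid cells. Transcription of most of these genes is induced by NF-κB, AP-1 and C/EBP factors, and many of their mRNAs are short-lived because of AU-rich stretches in the 3′ UTR. Triple-negative breast cancer lines, MDA-MB-231 among them, are known to secrete several of them.

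The upstream sequences of the genes are shown because CXCL1, CXCL2 and CXCL3, of which CXCL3 alone was called changed, are close copies of each other there. RefSeq promoters (GRCh38.p14) matched 9 of the 10 genes, all but LIF. The 120 bases before the RefSeq start are printed 5′ to 3′ on the strand of the gene. Capitals mark matches to the NF-κB consensus, to the letters GGAATTTCC, to the AP-1 letters TGANTCA or to the TATA letters TATAAA, each searched on both strands.
CXCL1 (chr4:73869273-73869392, plus strand): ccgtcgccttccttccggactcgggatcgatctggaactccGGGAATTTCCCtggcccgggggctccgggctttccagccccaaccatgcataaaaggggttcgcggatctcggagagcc
CXCL2 (chr4:74099196-74099315, minus strand): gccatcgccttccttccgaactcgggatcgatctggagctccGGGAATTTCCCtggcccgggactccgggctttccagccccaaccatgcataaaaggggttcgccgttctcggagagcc
CXCL3 (chr4:74038690-74038809, minus strand): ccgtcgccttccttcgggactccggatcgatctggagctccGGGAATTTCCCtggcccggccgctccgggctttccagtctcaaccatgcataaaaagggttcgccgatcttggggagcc
CXCL8 (chr4:73740449-73740568, plus strand): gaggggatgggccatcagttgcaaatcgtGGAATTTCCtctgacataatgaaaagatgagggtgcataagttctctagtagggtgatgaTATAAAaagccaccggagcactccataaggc
IL6 (chr7:22727080-22727199, plus strand): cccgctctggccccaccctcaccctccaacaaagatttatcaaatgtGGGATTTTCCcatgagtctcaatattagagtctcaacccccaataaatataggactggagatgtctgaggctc
IL11 (chr19:55370464-55370583, minus strand): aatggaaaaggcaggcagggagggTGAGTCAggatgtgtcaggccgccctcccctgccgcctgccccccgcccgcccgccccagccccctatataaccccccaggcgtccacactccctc
CSF2 (chr5:132073669-132073788, plus strand): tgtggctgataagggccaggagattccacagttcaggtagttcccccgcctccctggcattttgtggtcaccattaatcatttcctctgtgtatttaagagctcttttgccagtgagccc
The NF-κB consensus was found in the 120 bases of 4 of the 9 genes, CXCL1, CXCL2, CXCL3 and IL6, and 4.98% of 35116 promoters held it in the same window. The overlapping letters GGAATTTCC were found in CXCL1, CXCL2, CXCL3 and CXCL8, and in 0.214% of all promoters. TGANTCA was found in the 120 bases of IL11 and IL1A (3.34% of all promoters), and CXCL8 held it farther upstream, from base -137 to -131. TATAAA stood in the window of CXCL8 (5.63% of all promoters). No match to these letters was found in the windows of CSF2 and IL1B. A match is a description of the letters and not a site shown to be bound. The 120 bases of CXCL1 and CXCL2 were 93.4% identical, those of CXCL1 and CXCL3 90.8% and those of CXCL2 and CXCL3 88.4%, whereas CXCL8 was 43.7% to 45.3% identical to these genes.

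The AU-rich stretches are shown because both the genes that rose and the genes that fell carry them. In the 3′ UTR of the principal GENCODE 29 transcript, 8 of the 10 genes held the nonamer TTATTTATT, and IL6 and IL1A held only the shorter ATTTA. IL11 held 6 nonamers, CXCL2 held 5, CXCL1 and CSF2 held 3 each, LIF and IL1B held 2 each, and CXCL8 and CXCL3 held 1 each. The 30-base windows below hold the most nonamers in each of 6 genes, with the nonamers in capitals.
IL11: ccaaagccagatcTTATTTATTTATTTATT
LIF: aagagagatgtctccgggcccTTATTTATT
CSF2: atttttaaaatatTTATTTATTTATTTATT
CXCL8: aacatacttatatgtaaagtaTTATTTATT
CXCL3: ttaaaaaaagaatgtcagttgTTATTTATT
CXCL2: gtcttctatTTATTTATTTATTTATTTATT
Among genes whose 3′ UTR was within 20% of the length of that of the member, a nonamer was present in 2.01% for CSF2, 4.21% for CXCL3, 5.03% for CXCL2, 6.59% for CXCL8, 7.29% for IL11 and 14.2% for LIF, which has the longest of these 3′ UTRs. Of all 12602 tested coding genes with a 3′ UTR, 25.8% were called changed under CYT, with a median log2 fold change of -0.07. The values were 23.6% and 0.05 for the 1086 genes with at least 1 nonamer and 26.8% and 0.02 for the 246 with at least 2. For the 83 genes with at least 3 nonamers they were 25.3% and -0.14.

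Summed gene counts were 14050849 to 17770102 in control and 13056270 to 14106017 in CYT libraries, and of the control libraries only replicate 3 fell within the CYT range. CYT replicate 2 stood apart from the rest of its group. Its log2 CPM (a gene's reads scaled to library size) correlated with those of the other CYT libraries at 0.913 and 0.914 across genes, against 0.976 between CYT replicates 1 and 3 and 0.958 to 0.976 among controls. The 7 mesenchymal line markers summed to 4648 to 5020 CPM in control and to 2303 to 2450 CPM under CYT, with vimentin (VIM) at 2459 and 996 CPM. Of the 8 luminal markers, the oestrogen receptor gene ESR1, PGR, CDH1 and EPCAM had at most 16 counts in any library and FOXA1 and GATA3 were below 10 CPM on average in both groups. The luminal keratin genes were not low, with KRT8 at 323 CPM and KRT18 at 279 CPM in control, so that the luminal list summed to 472 to 741 CPM in control and to 202 to 493 CPM under CYT. VIM, EGFR and SPARC were called lower under CYT, and 6 of the 7 line markers lay below control without overlap. This fall accompanied the changes described below, and its part in them was not tested. CPM values below are normalized by the trimmed mean of M values (TMM), and genes were called changed where the log2 fold change exceeded 1 in either direction and p, adjusted over all tested genes by the Benjamini-Hochberg method, was below 0.05 in edgeR's quasi-likelihood test. In bulk RNA, fewer cells expressing a gene and less RNA per cell cannot be told apart.

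Of the 10 genes, 5 were called changed, CXCL8 and CXCL3 higher and IL11, LIF and CSF2 lower in the CYT group. By the same rule 27.4% of all tested genes were called, 15.2% higher and 12.2% lower. The median log2 fold change of the 10 genes was -0.21, against 0.01 over all tested genes. The CPM values of the groups did not overlap for 7 of the 10 genes, 3 above and 4 below control, and for 46.1% of all tested genes. The exact two-sided permutation test on CPM gave p = 0.1 for each of these 7 genes, which is the smallest value that 3 against 3 libraries allow.

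**Figure D1:**
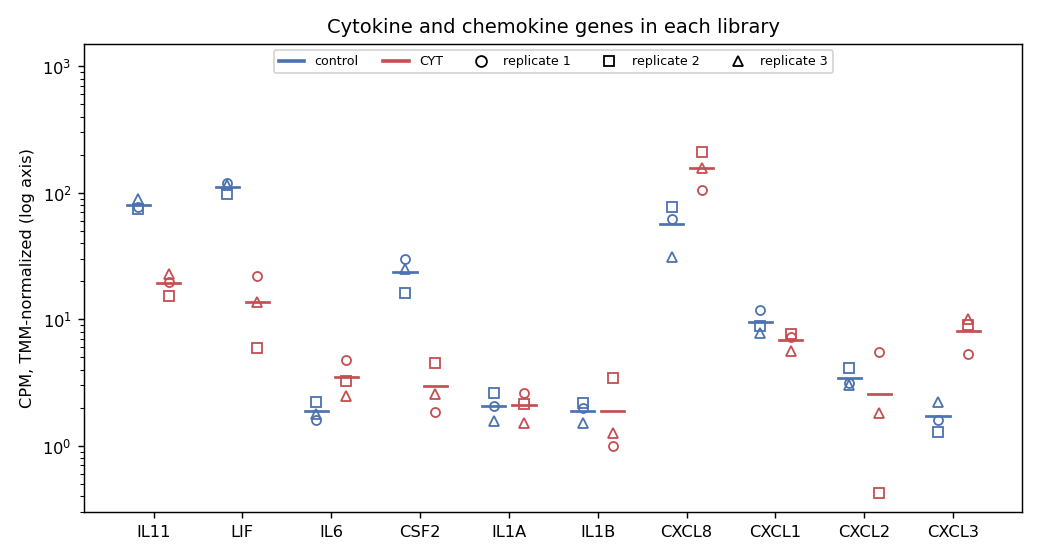
TMM-normalized CPM (log axis) of the 10 genes in each library, control in blue and CYT in red, with the mean of each group as a bar and a symbol for each replicate. IL11, LIF and CSF2 sit lower in all 3 CYT libraries, CXCL8 and CXCL3 sit higher, and IL1A, IL1B and CXCL2 overlap between the groups.

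Of the IL-6 family genes, IL11 and LIF fell and IL6 was not called. IL11, whose product signals in stromal and epithelial cells and is known in bone metastasis of breast cancer, lies on chromosome 19 from 55364389 to 55370463 (GRCh38, minus strand). It measured 77.7, 74.8 and 88.7 CPM in the control libraries, replicates 1 to 3 in order, and 19.7, 15.2 and 22.7 CPM in the CYT libraries. Every CYT library was far below every control library, and the spread within each group was small. The mean fell from 80.4 ± 7.35 to 19.2 ± 3.77 CPM (SD, n = 3 each), 4.18-fold lower, with a log2 fold change of -2.07 ± 0.30 (SE) and an adjusted p of 0.00159 in edgeR's quasi-likelihood test. IL11 was called in each of 13 alternative analyses, with log2 fold changes from -2.18 to -1.87.

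LIF encodes leukaemia inhibitory factor, a cytokine known to keep stem cells undifferentiated and to act on tumour cells through LIFR and gp130 (chromosome 22 from 30240447 to 30246851, minus strand). It gave 119, 97.5 and 114 CPM in control and 21.8, 5.98 and 13.7 CPM in CYT libraries. The CYT values were widely spread, replicate 2 being the lowest, but all lay well below control. The mean fell from 110.3 ± 11.3 to 13.8 ± 7.91 CPM, 7.98-fold lower (log2 fold change -2.997 ± 0.46, adjusted p = 0.00195, edgeR). Genes on the opposite strand overlap LIF, and they had few reads, at most 8 counts of AC004264.1 and at most 5 counts of LIF-AS1 in any library, against 84 to 1920 counts of LIF.

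IL6 itself was a low gene in these cells, with 26, 42 and 25 counts in control and 68, 46 and 31 counts in CYT libraries (chromosome 7 from 22725884 to 22732002, plus strand). This gave 1.61, 2.24 and 1.80 CPM in control and 4.80, 3.27 and 2.46 CPM under CYT. The groups did not overlap, but the lowest CYT library was close to the highest control library. The log2 fold change of 0.90 ± 0.43 (95% confidence interval -0.06 to 1.85) was not called (adjusted p = 0.146, edgeR), and it was called in none of 12 alternatives. The antisense gene AC073072.1 overlaps IL6 and had 4, 6 and 4 counts in control and 17, 15 and 6 counts in CYT libraries, and reads of this gene and of IL6 cannot be told apart where the counting did not use strand, which is not stated. Within each library, IL11 had 48.2, 33.4 and 49.4 counts for each IL6 count in control and 4.10, 4.65 and 9.23 under CYT. The ratio of LIF to IL6 counts was 73.8, 43.6 and 63.6 in control and 4.54, 1.83 and 5.55 under CYT. Neither ratio overlapped between the groups (exact permutation p = 0.1 each, adjusted p = 0.1 over the 5 gene pairs compared). Each pair set a called gene against one not called, so the ratios restate the changes of the single genes and are not separate support.

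CSF2, the gene of GM-CSF on chromosome 5 (132073790 to 132076170, plus strand), also fell. Its values were 30.2, 16.03 and 24.9 CPM in control and 1.83, 4.48 and 2.54 CPM in CYT libraries. The highest CYT library was under the lowest control library by a wide margin. The mean fell from 23.7 ± 7.16 to 2.95 ± 1.37 CPM, 7.996-fold lower (log2 fold change -2.999 ± 0.44, adjusted p = 0.00171, edgeR). LIF and CSF2 were called in each of 13 alternatives.

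The interleukin-1 genes IL1A and IL1B, neighbours on chromosome 2 with 45161 bp between them, were low and did not separate the groups. IL1A, which encodes a cytokine that also acts bound to the cell, measured 2.05, 2.61 and 1.58 CPM in control and 2.61, 2.14 and 1.51 CPM under CYT. Its log2 fold change was 0.00 ± 0.44, with a 95% confidence interval of -0.99 to 0.99 (adjusted p = 0.998, edgeR), so that changes within about this interval were not detectable here. IL1B, whose product is secreted after cleavage by caspase-1, measured 1.98, 2.18 and 1.51 CPM in control and 0.987, 3.42 and 1.27 CPM under CYT. CYT replicate 2 was the highest of the 6 libraries and the other CYT libraries were the lowest. The log2 fold change of IL1B was 0.00 ± 0.55, with an interval of -1.22 to 1.22 (adjusted p = 0.999, edgeR), and without CYT replicate 2 it was -0.75 (adjusted p = 0.252).

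The neutrophil-attracting chemokines lie on chromosome 4, where CXCL8 and CXCL3 rose and CXCL1 and CXCL2 were not called. CXCL8, the gene of interleukin-8 (73740506 to 73743716, plus strand), gave 61.6, 76.6 and 31.1 CPM in control and 105, 212 and 157 CPM in CYT libraries. Control replicate 3 was the lowest and CYT replicate 2 the highest, and the groups did not overlap. The mean rose from 56.4 ± 23.2 to 158 ± 53.3 CPM, 2.80-fold, with a log2 fold change of 1.49 ± 0.41 and an adjusted p of 0.0230 in edgeR's quasi-likelihood test. This call was lost without control replicate 1 (adjusted p = 0.0658), control replicate 3 (0.0893) or CYT replicate 3 (0.0553), and it was made in 10 of 13 alternatives.

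CXCL3, the gene of a chemokine also called GROγ (74036589 to 74038807, minus strand), rose from a low level. It had 26, 24 and 31 counts in control and 75, 127 and 127 counts in CYT libraries, which gave 1.61, 1.28 and 2.23 CPM against 5.29, 9.04 and 10.1 CPM. The lowest CYT library was above the highest control library. The mean rose from 1.71 ± 0.482 to 8.14 ± 2.52 CPM, 4.77-fold (log2 fold change 2.26 ± 0.43, adjusted p = 0.00448, edgeR), and the gene was called in each of the 12 alternatives in which it was tested. In the same libraries as the rise of CXCL8 and CXCL3, the leukocyte markers CD14 and FCER1G rose too (CD14 not without control replicate 1, adjusted p = 0.0634), and the summed level of all 11 leukocyte markers was 0.745 to 2.42 CPM in control and 7.55 to 10.2 CPM under CYT. The pan-leukocyte gene PTPRC (CD45) had 0 counts in every control library and 7, 2 and 2 counts under CYT. ITGAM went from 3, 2 and 3 to 8, 16 and 16 counts and LYZ from 0 to 0, 11 and 6 counts, whereas CSF1R had 20, 8 and 7 counts in control and 2, 8 and 3 under CYT. TYROBP and CD3E were among 3 markers at 0 in every library. Their part in the result was not tested.

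CXCL1 and CXCL2, which encode the related GROα and GROβ, were not called. CXCL1 (73869393 to 73871242, plus strand) measured 11.9, 8.79 and 7.76 CPM in control and 7.26, 7.69 and 5.56 CPM in CYT libraries. All CYT values were below control, by a narrow margin, and the log2 fold change of -0.47 ± 0.34 (interval -1.23 to 0.28) was not called (adjusted p = 0.326, edgeR). CXCL2 (74097035 to 74099293, minus strand) measured 3.16, 4.15 and 3.02 CPM in control and 5.501, 0.427 and 1.83 CPM under CYT. Its CYT libraries held both the highest and the lowest value, replicate 2 having only 6 counts. The log2 fold change was -0.41 ± 0.71 (interval -1.9995 to 1.17, adjusted p = 0.698, edgeR), and it was 0.09 without CYT replicate 2 and -1.62 without CYT replicate 1 (adjusted p = 0.118).

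Since the transcripts of these paralogs are alike in part, reads may have been split among them. Of the 50-base windows of the principal mRNA, 5.73% in CXCL1, 9.24% in CXCL2 and 5.26% in CXCL3 occurred in another gene, all of them within this trio, and none in CXCL8. The summed counts of the trio were 269, 267 and 181 in control and 256, 241 and 220 in CYT libraries. They do not depend on how such reads were divided among the trio. They would depend on it if such reads were dropped or counted more than once, and the handling is not stated. In CPM these sums were 16.7, 14.2 and 13.01 against 18.1, 17.2 and 17.5, without overlap, but the log2 fold change of 0.26 ± 0.29 was not called (adjusted p = 0.531, edgeR). The ratio of CXCL3 to CXCL1 counts within a library was 0.135, 0.145 and 0.287 in control and 0.728, 1.18 and 1.81 under CYT. For CXCL3 to CXCL2 it was 0.510, 0.308 and 0.738 in control and 0.962, 21.2 and 5.52 under CYT. The ratio of CXCL8 to CXCL1 was 5.17, 8.72 and 4.0 in control and 14.4, 27.5 and 28.3 under CYT. None of these ratios overlapped between the groups (exact permutation p = 0.1 each, adjusted p = 0.1 over the 5 pairs). These pairs too set a called gene against one not called, so the ratios restate the single-gene results.

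**Figure D2:**
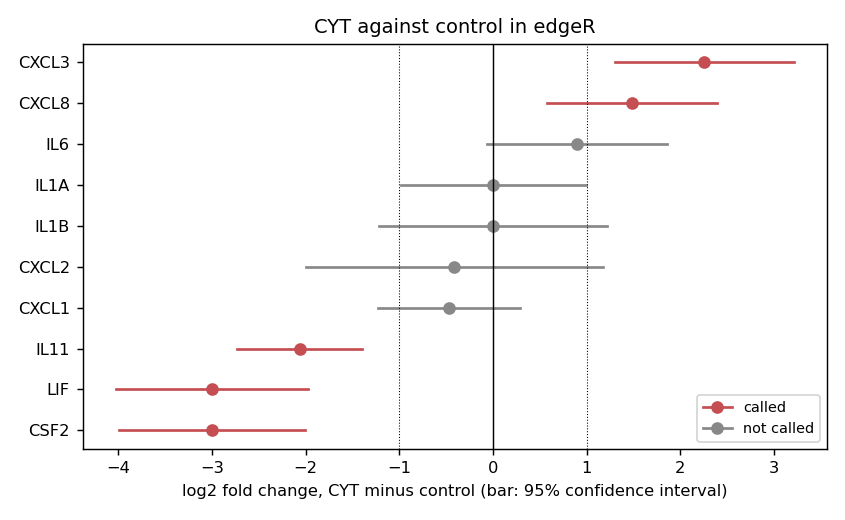
Log2 fold change of CYT over control for the 10 genes, with the 95% confidence interval from edgeR's quasi-likelihood fit as a bar and called genes in colour. LIF lies at -2.997, CSF2 at -2.999 and IL11 at -2.07, CXCL3 at 2.26 and CXCL8 at 1.49, while the intervals of the remaining 5 genes include 0.

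Levels of different genes were compared per length, as CPM per kb of exonic length in GENCODE 29. The deposited FPKM, the authors' value per length and depth, was not used for this, because the length it implies for CXCL3 (3922 bp) is longer than the whole gene (2219 bp). In control cells CSF2 (30.1 ± 9.09 CPM per kb), IL11 (30.1 ± 2.75), LIF (27.8 ± 2.85) and CXCL8 (24.8 ± 10.2) stood at the top with overlapping values. CXCL1 followed at 7.32 ± 1.66 and CXCL2 at 2.30 ± 0.412, each without overlap with the gene above it. IL1A, IL6, CXCL3 and IL1B lay between 0.611 and 0.979, and neighbours in this order overlapped. Under CYT, CXCL8 stood alone at 69.5 ± 23.5 CPM per kb, and IL11 was next at 7.19 ± 1.41. Below IL11, every gene overlapped with its neighbour in the order, down to IL1B at 0.611. The order depends on the length taken, since the exonic length of CXCL3 (2219 bp) covers its whole gene and its principal mRNA has 1075 bp. Per kb of principal mRNA, CXCL3 was at 1.59 ± 0.449 in control and 7.57 ± 2.35 under CYT, where it came next after IL11 (8.42 ± 1.65) with overlapping values. On that scale IL11 (35.3 ± 3.22), CXCL8 (33.1 ± 13.6), CSF2 and LIF led in control, again with overlap, and CXCL8 led under CYT (92.7 ± 31.3).

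As a share of the summed level of the 10 genes per length, IL11, LIF and CSF2 made up 70.2%, 60.9% and 79.1% in the control libraries and 19.8%, 10.8% and 15.7% in the CYT libraries. The share of CXCL8 and CXCL3 was 20.01%, 28.6% and 12.4% in control and 63.1%, 81.0% and 76.2% under CYT. Most of the latter was CXCL8, with 60.03%, 77.6% and 71.5% in the CYT libraries. The summed level was 139, 120 and 118 CPM per kb in control and 76.8, 120 and 96.8 CPM per kb under CYT, so that CYT replicate 2 reached the level of control replicate 2. The makeup of the set differed between the groups in every library, being mostly IL11, LIF and CSF2 in control and mostly CXCL8 under CYT. The genes grouped here are those called lower and higher in the same libraries, so the shift in shares restates those calls.

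**Figure D3:**
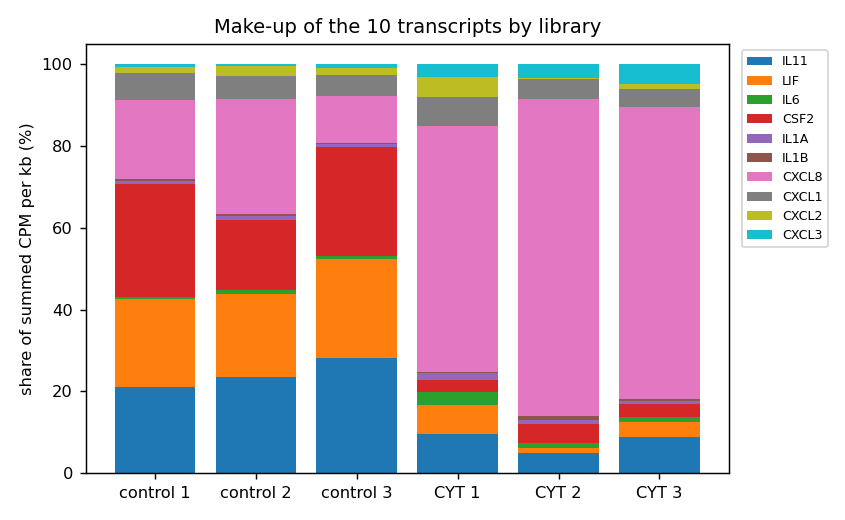
Share of each gene in the summed CPM per kb of the 10 genes, as stacked bars from 0 to 100% for each of the 6 libraries. IL11, LIF and CSF2 take 60.9% to 79.1% of each control bar, and CXCL8 takes 60.03% to 77.6% of each CYT bar.

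Receptor genes changed in both directions. Of 12 receptor genes, 7 were tested, 1 was called higher and 2 were called lower, and the median log2 fold change was 0.77. IL1RAP, the accessory chain that IL-1 needs to signal, rose from 6.29 ± 2.17 to 23.5 ± 12.4 CPM (log2 fold change 1.90, adjusted p = 0.0120, edgeR), a call lost without control replicate 1 (adjusted p = 0.0538) or 3 (0.0588). IL1R1, the chain that binds IL-1, had 39, 25 and 10 counts in control and 7, 3 and 3 counts under CYT, and its call (log2 fold change -2.21, adjusted p = 0.0310, edgeR) was lost in 6 of 12 alternatives, among them those without control replicate 1 (adjusted p = 0.146) or 2 (0.0624) and without CYT replicate 2 (0.0604) or 3 (0.111). CSF2RA, the GM-CSF binding chain, fell from 206, 186 and 150 to 48, 42 and 33 counts (log2 fold change -1.89, adjusted p = 0.00350, edgeR), and it was not called with limma on log2(FPKM + 1), where its log2 fold change was -0.80. Its signalling partner CSF2RB had at most 2 counts in any library and was not tested. The gp130 gene IL6ST had 809, 2029 and 915 counts in control and 1392, 4063 and 1286 counts under CYT. Its log2 fold change of 1.13 was not called (adjusted p = 0.108, edgeR), but it was called with the replicate number as a block (1.009, adjusted p = 0.0137). Without CYT replicate 2, which had the highest count, the log2 fold change was 0.41 (adjusted p = 0.374). IL6R (0.34), LIFR (0.77) and IL11RA (0.85) were not called, IL11RA being called only without CYT replicate 2 (1.12, adjusted p = 0.0247). CXCR1 and CXCR2, the receptors of the chemokines, had at most 3 counts in any library, as had the decoy receptor gene IL1R2.

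Downstream of the IL-6 family, 1 of 13 JAK, STAT and SOCS genes was called, and the median log2 fold change of the list was -0.07. SOCS1, an inhibitor of JAK kinases, rose from 32, 32 and 20 to 90, 44 and 64 counts (log2 fold change 1.5, adjusted p = 0.0269, edgeR), but the call held only without CYT replicate 2 among the 6 analyses that left out a library, with adjusted p up to 0.106. SOCS3, the inhibitor that STAT3 induces, had 55.0 ± 16.9 CPM in control and 26.5 ± 12.0 CPM under CYT. Its log2 fold change of -1.05 was not called (adjusted p = 0.0932, edgeR), and with the replicate block it was (-1.13, adjusted p = 0.00798). STAT3 had 167 ± 24.9 CPM in control and 229 ± 23.2 CPM under CYT and was not called (adjusted p = 0.240, edgeR).

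Among genes that process, release or inhibit IL-1, 4 of 8 were tested and 2 were called lower, with a median of -0.28. SIGIRR, an inhibitory receptor of the IL-1 family, fell from 274, 212 and 242 to 65, 18 and 35 counts (log2 fold change -2.40, adjusted p = 0.00560, edgeR). GSDMD, the gene of the pore protein gasdermin D through which IL-1β leaves the cell, fell from 88.8 ± 16.2 to 33.4 ± 15.9 CPM (log2 fold change -1.41, adjusted p = 0.0293, edgeR), and the call was lost without any 1 control replicate (adjusted p up to 0.0931) and without CYT replicate 1 (0.0617). The caspase-1 gene CASP1 had 7, 23 and 13 counts in control and 0, 0 and 4 counts under CYT, and the receptor antagonist gene IL1RN had 0, 0 and 0 against 5, 0 and 6 counts. Neither was tested.

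In IL-1 receptor signalling, 2 of 13 genes were called, 1 in each direction, with a median of 0.29. IRAK3, an inhibitor of this pathway, had 0, 2 and 2 counts in control and 27, 36 and 18 counts under CYT (adjusted p = 0.00281, edgeR), and with limma on log2(FPKM + 1) it was not called (log2 fold change 0.23). The ratio of its depth-scaled summed counts was 24.2, with a counting interval of 9.09 to 90.9. The kinase gene IRAK2 fell from 34.5 ± 8.57 to 9.62 ± 5.31 CPM (log2 fold change -1.84, adjusted p = 0.0118, edgeR), and without CYT replicate 3 the adjusted p was 0.0516.

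The NF-κB subunits and inhibitors changed in both directions. Of 11 genes, 2 were called higher and 3 lower, with a median of -0.31. RELA, the p65 subunit, fell from 2782, 1093 and 2157 to 646, 220 and 573 counts (log2 fold change -1.85, adjusted p = 0.0247, edgeR), and the call was lost without control replicate 1 (adjusted p = 0.0817), control replicate 3 (0.0772) or CYT replicate 3 (0.0516). NFKBIA, the inhibitor IκBα and itself an NF-κB target, fell from 71.3 ± 34.5 to 16.8 ± 4.60 CPM (log2 fold change -2.09, adjusted p = 0.00752, edgeR) and was called in each of 13 alternatives. NFKBIZ, a nuclear cofactor for IL6 and other targets, was called lower in the reported analysis (-1.17, adjusted p = 0.0486, edgeR) and in 4 of 13 alternatives, and of the libraries left out only CYT replicate 2 left the call in place. TNFAIP3, the inhibitor A20, rose from 101, 139 and 79 to 248, 223 and 180 counts (log2 fold change 1.30, adjusted p = 0.0129, edgeR), a call lost without control replicate 1 (adjusted p = 0.0537) or 3 (0.0678). NFKBIB, the inhibitor IκBβ, rose from 472, 443 and 558 to 852, 886 and 968 counts (1.11, adjusted p = 0.0259, edgeR), a call lost without control replicate 1 (0.0972) or 2 (0.0944) and without CYT replicate 1 (0.0564) or 3 (0.0824). NFKB1 had a log2 fold change of -0.54 (adjusted p = 0.178, edgeR).

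Of 4 C/EBP genes, CEBPA was called, with 187, 192 and 294 counts in control and 1719, 313 and 1285 counts under CYT (log2 fold change 2.52, adjusted p = 0.0119, edgeR), and without control replicate 1 the adjusted p was 0.0535. CYT replicate 2 was much nearer to control than the other CYT libraries. CEBPB, the member best known for inducing IL6 and CXCL8, had 154 ± 44.6 and 140 ± 81.0 CPM (-0.13, adjusted p = 0.860, edgeR), and CEBPD had a log2 fold change of 0.70 (adjusted p = 0.203).

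Of 17 genes that act on the decay or stability of cytokine mRNA, 1 was called, and the median was 0.03. HNRNPD, which encodes the AU-rich element binding protein AUF1, fell from 2210, 1657 and 1994 to 608, 322 and 302 counts (log2 fold change -2.04, adjusted p = 0.00362, edgeR) and was called in each of 13 alternatives. ZFP36, the gene of tristetraprolin, which marks such mRNAs for decay, had a log2 fold change of 0.68 (adjusted p = 0.296, edgeR), and ZC3H12A, the gene of the nuclease regnase-1, one of 0.15 (adjusted p = 0.855).

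Of 38 other cytokine and chemokine genes, 20 were tested, 7 were called higher and 4 lower, with a median of 0.42. CXCL10 and CXCL11, chemokines induced by interferon, both rose. CXCL10 had 0, 0 and 3 counts in control and 46, 79 and 42 counts under CYT (adjusted p = 0.00200, edgeR), a ratio of depth-scaled counts of 66.5 with a counting interval of 22.4 to 326. CXCL11 had 7, 6 and 0 against 64, 68 and 53 counts (log2 fold change 4.08, adjusted p = 0.00325, edgeR). IL24, a cytokine of the IL-10 family known for growth arrest in tumour cells, rose from 10, 18 and 12 to 381, 276 and 162 counts (log2 fold change 4.59, adjusted p = 0.000373, edgeR). IL23A, a subunit of interleukin-23, rose from 9, 19 and 12 to 49, 31 and 65 counts (2.14, adjusted p = 0.0119, edgeR), a call lost without control replicate 1 (adjusted p = 0.0538) or CYT replicate 3 (0.0563).

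Among the 4 that fell, CSF3, the gene of G-CSF, went from 41, 58 and 51 to 0, 1 and 9 counts (log2 fold change -3.57, adjusted p = 0.0153, edgeR), with an adjusted p of 0.0527 without control replicate 3. Since 9 of its 10 counts under CYT were in replicate 3, its log2 fold change was -6.14 without that library, and it was -0.54 with limma on log2(FPKM + 1). IL18, an IL-1 family cytokine, fell from 715, 1480 and 384 to 56, 102 and 100 counts (log2 fold change -2.98, adjusted p = 0.00217, edgeR). IL16 fell from 50, 53 and 38 to 9, 5 and 8 counts (-2.40, adjusted p = 0.00548, edgeR), and it was not called with limma on log2(FPKM + 1) (-0.16) or log2(FPKM + 0.1) (-0.94). CCL2, which attracts monocytes, fell from 22.2 ± 6.02 to 9.99 ± 0.966 CPM (-1.15, adjusted p = 0.0270, edgeR), and the call was lost without control replicate 2 (adjusted p = 0.0799) or 3 (0.0749) and without CYT replicate 1 (0.0915) or 3 (0.0763). With limma on log2(FPKM + 1), a scale that understates the change of low genes, CCL2 (-0.90), IL23A (0.98), IL1RAP (0.64), TNFAIP3 (0.59) and the markers SPARC (-0.95) and CD14 (0.77) were not called either, since their log2 fold change did not exceed 1.

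**Figure D4:**
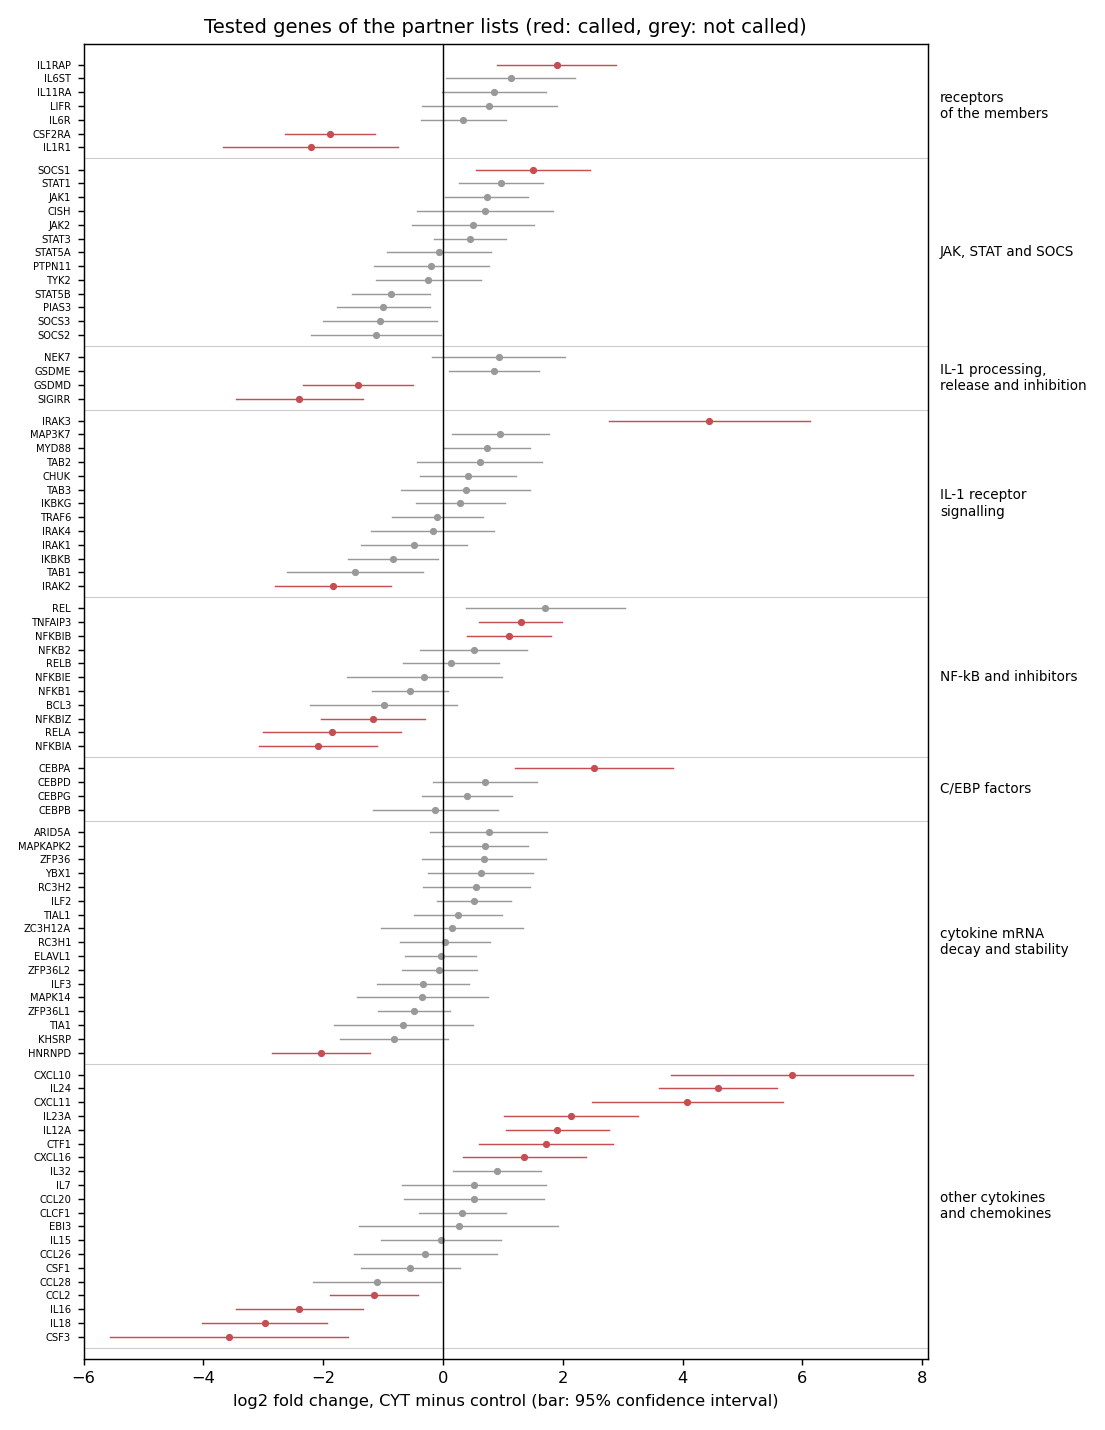
Log2 fold change of CYT over control with 95% confidence intervals for the tested genes of the lists around the 10 cytokine genes. Called genes are in red and others in grey. Calls lie on both sides of 0 in the receptor, IL-1 receptor signalling, NF-κB and other cytokine lists, and HNRNPD is the only called gene of the mRNA decay list. The values of IRAK3 and CXCL10, which had at most 3 counts in each control library, depend on the prior count of the fit and are not bounds.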

How the data were processed

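RNA of 3 control and 3 CYT-treated MDA-MB-231-DR samples was sequenced by the authors, who aligned reads with Hisat2 and named Stringtie for FPKM. The submitters' processing notes list FastQC 0.12.1 and hg38. For every gene and library, the authors deposited a raw count and an FPKM value. The counting program, its annotation and its use of strand are not given in the sources used here, which bears on CXCL1, CXCL2, CXCL3, IL6 and LIF. Groups and replicate numbers came from the labels. The members and lists were chosen with earlier results of these data known.

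Counts were analysed in edgeR 4.0.16 (R 4.3.3) by the quasi-likelihood test after TMM scaling and filterByExpr at a minimum of 10 counts, adjusted by the Benjamini-Hochberg method over 15572 genes. The F statistic gave the standard errors. The biological coefficient of variation was 37.5%. Intervals for ratios of summed counts cover counting error only. Replicates differed by more than sampling noise (chi-square per gene of 25.0 or more), so none was counted as a copy. Alternatives were DESeq2 1.42.0, upper-quartile scaling, other filters, limma 3.58.1 on log2(FPKM + 1) and log2(FPKM + 0.1), adjusted p alone, a replicate block and leaving out each library.

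Same-numbered libraries deviated together across genes, with correlations of 0.237, 0.510 and 0.137 for replicates 1, 2 and 3. The reported fit was unpaired, and the replicate number was a block only in an alternative. Control 1 with CYT 3 (0.358) and control 3 with CYT 1 (0.223) also correlated, each above the value of that control with its own number. Pairing by number was therefore not established. The genes named are the 10 members, textbook partners, and the called genes of each list, up to 4 with the largest rise and 4 with the largest fall. Neighbours within 100 kb and the 3 genes most like each member were taken by the same rule, and only some of them are named here. CASP1 and OSM were named after their values were seen, and 1 marker of the lists is not reported here by name.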

Additional observations from a re-analysis of the deposited data

How the results depend on the processing

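IL11, LIF, CSF2 and CXCL3 kept their calls in every alternative that tested them, and of the members CXCL8 alone lost its call, without 1 of 3 libraries. With the replicate block, 5 of the members were called, as without it, and IL6ST and SOCS3 became called. The genes called numbered 2710 when a mean of 5 CPM was required and 2375 with limma on log2(FPKM + 1), against 4274, those higher 1392 and 1265 against 2373, and those lower 1110 with limma on log2(FPKM + 1) against 1901. Leaving out each library gave 1208 to 2328 lower genes and 1 to 2 members higher. Requiring 5 CPM left 1 member higher, since CXCL3 was not tested. Upper-quartile scaling shifted the median over all genes (log2) from 0.01 to 0.16, and relative to that median CXCL8 was at 1.48, CXCL3 at 2.25, IL11 at -2.07, LIF at -3.002, CSF2 at -2.996 and IL1B at -0.0037. On the deposited FPKM, 5 of the members did not overlap between groups, against 7, an alternative added after seeing the data.

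Some values near 0 changed sign. IL1A was at -0.071 with no filter, -0.00072 with the block and -0.20 to 0.21 with a library left out. IL1B was at 0.023 with DESeq2, 0.15 with upper-quartile scaling and -0.75 to 0.30 with a library left out, and CXCL2 at -1.62 to 0.087 with a library left out. CEBPB was at 0.014 with upper-quartile scaling and -0.57 to 0.25 with a library left out. ZC3H12A was at -0.041 with limma on log2(FPKM + 0.1), -0.052 with the block and -0.17 to 0.59 with a library left out. The cause was not tested. IL6, IL1A, IL1B, CXCL2 and CXCL3 rested on 6 to 127 counts per library, which limits what could be detected in them.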

Other observations

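Of the tested neighbours of the members on the chromosome, other members aside, only UBE2S and BRSK1 were called, both near IL11. Over all tested genes, 27.4% were called. Within 100 kb of IL11, UBE2S, a ubiquitin-conjugating enzyme of the anaphase-promoting complex (log2 fold change -2.34, adjusted p = 0.00557, edgeR), and BRSK1, a kinase (-2.96, adjusted p = 0.00240, edgeR), were called lower. The other 5 tested neighbours of IL11 were not called, namely ISOC2 (-1.42, adjusted p = 0.0530), HSPBP1 (-0.98, adjusted p = 0.0535), RPL28 (-0.34, adjusted p = 0.671), TMEM238 (-0.13, adjusted p = 0.914) and KMT5C (0.30, adjusted p = 0.630). OSM, an IL-6 family cytokine gene next to LIF, had 0 counts in control and 3, 0 and 6 counts under CYT. CKAP2L, next to IL1A, was not called (0.16, adjusted p = 0.802). Also not called were the tested neighbours of LIF (AC004997.1, CASTOR1, SF3A1 and TBC1D10A) and of IL6 (STEAP1B and TOMM7), and MTHFD2L near CXCL2 and CXCL3. CXCL6, which lies by CXCL1 in the chemokine cluster, had 0 counts in every library.

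Likeness over the 6 libraries was measured as Pearson's r of log2 CPM with each of 11417 genes of at least 5 CPM on average, and is a description over points that share the 2 groups. The genes most like IL11 were SNHG17 (r = 0.9998), LSM14A (0.997) and PLK1 (0.997), the mitotic kinase gene, and 585 genes had an r over 0.95. LIF was most like IER3 (0.999), an immediate early gene, TRIM27 (0.998) and BCAT2 (0.998), with 665 genes over 0.95. CSF2 was most like NRDE2 (0.995), with 285 such genes, CXCL3 most like ZNF224 (0.998), with 198, and CXCL8 most like SEC61A2 (0.987), with 101. The members that were not called had fewer, 9 for IL6, 4 for CXCL1, 5 for CXCL2, 2 for IL1A and 61 for IL1B.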
